A study of Homo sapiens with 12 samples.

Results

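Lysine succinylation was mapped in HepG2/C3A cells, a human hepatocellular carcinoma line, by CUT&Tag, which uses an antibody to bring a transposase to chromatin and sequences the DNA it cuts. The regions described here are those in which all 4 pan-succinyllysine (Ksu) libraries had a peak. Peaks of the 4 lists that overlapped by 1 bp or more on the 24 chromosomes were merged into 1044855 regions, and a region was kept when each library had a peak in it. That left 5696 shared Ksu regions, 0.545% of the merged regions and 12.3 Mb in all. The libraries were 2 of control cells and 2 of cells given 10 mM sodium succinate for 48 hours. The labels name both pairs biological replicates of the same unmodified line, and only the series' design text speaks of a vehicle for the control. H3K27me3, histone H3 trimethylated at lysine 27, was mapped in 2 control and 2 succinate libraries of the same design. IgG libraries, of which the series lists 4, were not analysed here, and no background of an unspecific antibody was measured.

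Succinylation adds a succinyl group from succinyl-CoA to a lysine, which turns the residue's positive charge into a negative one. It is known on mitochondrial enzymes and on histones, where SIRT5 and SIRT7 remove it. A pan-succinyllysine antibody reads the modification on any chromatin protein and does not tell which protein or residue carries it. H3K27me3 is laid down by Polycomb repressive complex 2 and marks repressed chromatin, and the jumonji demethylases KDM6A and KDM6B, which use 2-oxoglutarate and are inhibited by succinate, remove it.

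The sequences of gene starts in these regions are shown first. A promoter window here is the 300 bases from 250 before to 50 after a RefSeq gene start in GRCh38.p14. Of 35116 windows, 141 overlapped a shared Ksu region (0.402%, where the regions make up 0.397% of the chromosomes), and in 11 of them at least 1 base was covered in all 4 libraries. The 4 windows with the most such bases are printed below in the direction of transcription, with the bases covered in all 4 libraries in capitals. LOC124902555, a long noncoding RNA gene, has its window on the minus strand at chr10:117678278-117678577. ERICH6B, which codes for a glutamate-rich protein, has its window on the minus strand at chr13:45615690-45615989. KLF7, a zinc finger transcription factor of the Krüppel-like family, has this window on the minus strand at chr2:207167197-207167496. OR51E1, an olfactory receptor, has its window on the plus strand at chr11:4643732-4644031. PPIA, a housekeeping gene for a peptidyl-prolyl isomerase, is shown for contrast and was chosen after its values were seen. Its window lies on the plus strand at chr7:44796431-44796730, overlapped no merged Ksu region, and has its CG dinucleotides in capitals.
LOC124902555: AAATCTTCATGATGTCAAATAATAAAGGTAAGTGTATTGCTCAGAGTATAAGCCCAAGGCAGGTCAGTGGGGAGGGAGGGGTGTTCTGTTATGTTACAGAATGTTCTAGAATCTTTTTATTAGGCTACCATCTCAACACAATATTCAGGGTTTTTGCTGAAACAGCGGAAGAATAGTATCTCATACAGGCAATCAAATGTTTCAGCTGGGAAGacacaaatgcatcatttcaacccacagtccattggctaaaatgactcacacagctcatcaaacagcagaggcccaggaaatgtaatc
ERICH6B: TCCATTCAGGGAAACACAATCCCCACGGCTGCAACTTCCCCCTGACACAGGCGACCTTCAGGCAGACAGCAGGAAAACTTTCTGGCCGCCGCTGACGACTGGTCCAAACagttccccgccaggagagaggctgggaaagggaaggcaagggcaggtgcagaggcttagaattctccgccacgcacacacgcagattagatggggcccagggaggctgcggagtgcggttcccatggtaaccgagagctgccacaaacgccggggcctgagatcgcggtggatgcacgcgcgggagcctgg
KLF7: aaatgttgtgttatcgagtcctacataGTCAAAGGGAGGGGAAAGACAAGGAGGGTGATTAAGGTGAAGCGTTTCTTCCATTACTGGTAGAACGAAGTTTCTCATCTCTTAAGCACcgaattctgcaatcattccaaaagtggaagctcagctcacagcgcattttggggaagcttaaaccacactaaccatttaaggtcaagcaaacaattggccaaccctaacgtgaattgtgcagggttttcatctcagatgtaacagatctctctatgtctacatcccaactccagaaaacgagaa
OR51E1: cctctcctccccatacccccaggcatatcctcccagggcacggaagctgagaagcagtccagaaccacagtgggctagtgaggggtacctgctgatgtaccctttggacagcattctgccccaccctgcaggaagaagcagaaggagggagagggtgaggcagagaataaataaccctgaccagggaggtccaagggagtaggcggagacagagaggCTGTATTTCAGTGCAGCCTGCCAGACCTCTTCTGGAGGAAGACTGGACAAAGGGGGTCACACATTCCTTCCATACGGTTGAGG
PPIA: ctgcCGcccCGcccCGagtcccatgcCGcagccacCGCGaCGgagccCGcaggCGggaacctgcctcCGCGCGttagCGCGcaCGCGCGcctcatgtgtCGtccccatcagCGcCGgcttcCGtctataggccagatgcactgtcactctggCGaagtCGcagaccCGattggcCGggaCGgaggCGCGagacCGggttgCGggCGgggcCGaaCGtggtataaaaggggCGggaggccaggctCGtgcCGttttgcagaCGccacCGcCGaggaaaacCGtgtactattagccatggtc

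In the LOC124902555 window 213 bases were covered in all 4 libraries, against 109 in ERICH6B, 89 in KLF7 and 83 in OR51E1. The 4 windows differed in composition. The LOC124902555 window has 40.7% G and C with 1 CG dinucleotide, and that of KLF7 42.7% with 7. The ERICH6B window has 62.3% with 19 and that of OR51E1 57.0% with 3. The PPIA window has 68.7% G and C with 40 CG dinucleotides. H3K27me3 peaks overlapped the LOC124902555 and KLF7 windows in all 4 H3K27me3 libraries, the OR51E1 window in 3 and the ERICH6B window in 2. Around the LOC124902555 start Ksu peaks covered 1196 bp of the region in control replicate 1, 265 bp in control replicate 2, 1295 bp in succinate replicate 1 and 887 bp in succinate replicate 2. Control replicate 2 thus had the least cover, and the treatments overlapped.

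Promoter windows in shared Ksu regions were poorer in G and C than other promoter windows. The median was 49.7% G and C (quartiles 43.7 and 58.7%) over the 141 windows, against 58.7% over all windows. It was lower with each further Ksu library in the region, from 60.7% in the 24893 windows without a Ksu region to 54.7, 51.7 and 50.3% in windows that reached 1, 2 and 3 libraries. The median number of CG dinucleotides was 18, 8, 5, 5 and 4 in windows that reached 0, 1, 2, 3 and 4 libraries. Searched as the letters CG, which read the same on both strands, the dinucleotide was present at least once in 99.3% of the 141 windows and in 96.0% of all windows. The order also held apart from chromosomes 2, 6, 10 and 20, where the shared regions were most frequent: the median was 4 in 65 windows of the other chromosomes with a shared region and 18 in 20124 without a Ksu region. Of 7 housekeeping windows found in the table, with a median of 28 CG dinucleotides, 6 overlapped no Ksu region and that of B2M reached 1 library. Among all 35116 windows 24893 overlapped none, and 7 windows are too few to be set apart from that share. The base composition of Ksu peaks elsewhere was not measured, because no genome sequence was used here. The mix of gene types differed as well. Protein-coding genes made up 66.7, 57.4, 51.3, 42.4 and 44.7% of windows that reached 0, 1, 2, 3 and 4 libraries. The part of gene type in the base composition was not tested. These values are a description of windows grouped by the rule, with no test.

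**Figure D1:**
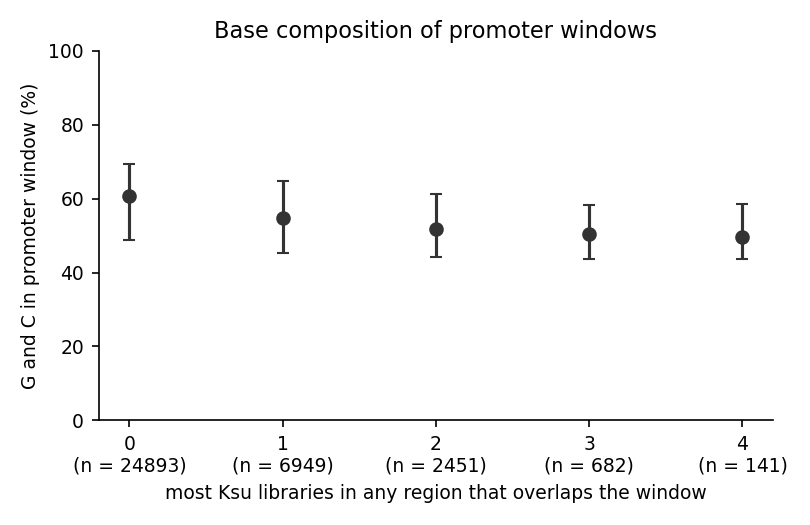
Percentage of G and C in the 300-base promoter windows (vertical axis) by the largest number of Ksu libraries in any region that overlaps the window (horizontal axis); points are medians and bars run from the lower to the upper quartile over windows. The median is 60.7% in windows without a Ksu region and 49.7% in the 141 windows with a shared region, and the quartile ranges overlap.

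Shared Ksu regions were wide, and most were chains of peaks that did not all meet. Their median width was 2025 bp (quartiles 1593 and 2569 bp, range 523 to 7709 bp), against 1366, 885 and 464 bp for regions in 3, 2 and 1 libraries. A region in more libraries holds more peaks, so its width follows in part from the rule. Peaks of all 4 libraries met at a common base in 1938 regions (34.0%), and in 3758 no base was covered in all 4. With a library left out, the other 3 met in 4680 (without succinate replicate 2) to 20868 regions (without control replicate 1). Where there were such bases, their median number per region was 175 bp (quartiles 79 and 292 bp), and 107 regions had 500 bp or more. These bases need not lie in a single stretch. Of all bases in shared regions, 3.25% were covered in all 4 libraries, 18.1% in 3 or more, and 45.7% in a single library. In 2659 regions (46.7%) there were exactly 4 peaks, one from each library, and the most in any region was 15.

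**Figure D2:**
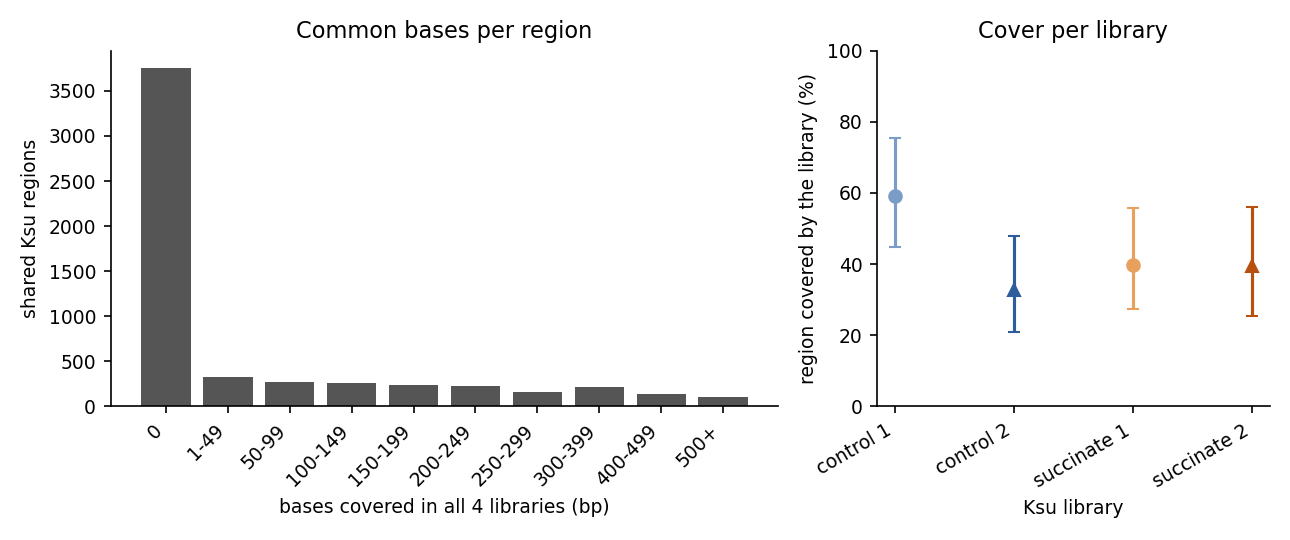
Left, number of shared Ksu regions (vertical axis) by the number of bases covered in all 4 Ksu libraries (horizontal axis, bp); 3758 of 5696 regions have none and 107 have 500 or more. Right, percentage of each region covered by peaks of one library (vertical axis) in the 4 libraries; points are medians and bars the quartiles over the 5696 regions, with control replicate 1 highest at 59.2%.

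Each library contributed a different amount to these regions. Peaks covered a median of 59.2% of a shared region in control replicate 1, 32.8% in control replicate 2, 39.7% in succinate replicate 1 and 39.5% in succinate replicate 2. Control replicate 1 covered most of a region and yet had the shortest peak list, with 76702 peaks on the chromosomes against 382019, 294568 and 629903 in the other three in that order. A step is the unit of which all signal heights in a library are whole multiples. The lowest total signal of a listed peak, in steps added up over its bases, was 8977 in control replicate 1 and 76.0 in control replicate 2. It was 4247 in succinate replicate 1 and 49 in succinate replicate 2. Such totals grow with peak width and cannot be set beside the heights in steps given below. A shared region therefore had to hold a strong peak of control replicate 1 and could hold a weak one of succinate replicate 2. Of the 44006 regions in 3 libraries, 27604 lacked control replicate 1, 7913 succinate replicate 1, 5393 control replicate 2 and 3096 succinate replicate 2. Without control replicate 1 the other 3 libraries shared 31951 regions, without control replicate 2 10574, without succinate replicate 1 12941 and without succinate replicate 2 8062.

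At the edge of the rule, the least that any library covered of a shared region was 48 bp, and in 74 regions the smallest cover was under 100 bp. Just outside it, 8 of the 44006 regions in 3 libraries touched a peak of the missing library without sharing a base, and 732 had one within 100 bp. The median distance from a region in 3 libraries to the nearest peak of the library it lacked was 5012.5 bp.

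Strong regions in one library were seldom strong in another. Over the 5696 regions the rank correlation of total signal between libraries ran from 0.049 (control replicate 2 and succinate replicate 1) to 0.14 (control replicate 2 and succinate replicate 2). The regions share chromosomes and their neighbours' signal, and this is a description with no test. The highest signal in a region had a median of 33 steps in control replicate 1, 14 in control replicate 2, 26 in succinate replicate 1 and 23 in succinate replicate 2, against 33, 12, 23 and 18 over all peaks of those libraries. Height was the same as over all peaks in control replicate 1 and 2 to 5 steps above it in the other libraries. The measures are unlike, since a region's value is the highest of its peaks in a library and the comparison is over single peaks. A region held 1 peak of the library in 95.4, 74.3, 81.9 and 69.2% of cases in the same order. By total signal, which grows with width, the median shared region stood at percentile 62.6, 76.0, 71.8 and 83.6 of the merged regions in its library, and 20.1, 32.0, 30.1 and 40.0% of shared regions were in the top 10%. A few regions were strong everywhere. The region with the highest value of its weakest library was chr10:20355673-20359866, outside protein-coding genes. It held 0.0582% of the signal in shared regions in control replicate 1, 0.0615% in control replicate 2, 0.0692% in succinate replicate 1 and 0.0566% in succinate replicate 2. These values lie within a narrow range and the treatments overlap, and 1034 bp were covered in all 4 libraries. No H3K27me3 peak overlapped it. The region with the most bases covered in all 4 libraries, 1276 bp, was chr20:1905677-1909601. It lay in SIRPA, the receptor for the CD47 "do not eat me" signal. It held 0.0512, 0.0578, 0.0391 and 0.0712% of that signal in the same order, with succinate replicate 1 lowest and succinate replicate 2 highest, and H3K27me3 peaks covered the whole region in all 4 libraries. Among the 10 strongest regions in every library, 2 others lay in protein-coding genes. These were GRID1, a delta-type glutamate receptor (chr10:85625601-85630973), and NEBL, an actin-binding protein (chr10:21016875-21023899). The longest region of all, 7709 bp at chr10:90606443-90614151, chained 15 peaks, and 113 bp of it were covered in all 4 libraries.

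Shared Ksu regions were unevenly spread over the chromosomes. There were 7.79 per Mb on chromosome 20 (501 regions), 5.80 on chromosome 2 (1405), 4.85 on chromosome 10 (649) and 3.73 on chromosome 6 (637), against 1.85 over all chromosomes. These 4 chromosomes, picked after their values were seen, held 56.0% of the shared regions but 25.2% of all merged Ksu regions and 19.8% of the length. Chromosome X held 2 shared regions, chromosome Y 1, chromosome 22 5, chromosome 21 12 and chromosome 19 14. The same chromosomes were rich in Ksu peaks library by library, though in control replicate 2 chromosome 5 (7.57%) had more cover than chromosome 20. On chromosome 20 peaks covered 7.58% of the sequence in control replicate 1, 7.52% in control replicate 2, 14.7% in succinate replicate 1 and 14.1% in succinate replicate 2, and on chromosome X 0.319, 3.19, 1.32 and 4.65%. The controls lay below the succinate libraries on chromosome 20 but overlapped them on X. Without control replicate 1 the share of regions on the 4 chromosomes was 39.7%, and the density on chromosome 20 was 27.2 per Mb. HepG2 is known to carry extra copies of chromosomes 2, 14, 16, 17 and 20 and of part of 6. Of these, chromosomes 2, 6, 16 and 20 were above the overall density, chromosome 16 with 2.74 per Mb, and chromosomes 14 and 17 were below it, at 0.683 and 1.27 per Mb. Copy number was not measured here, and its part was not tested.

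**Figure D3:**
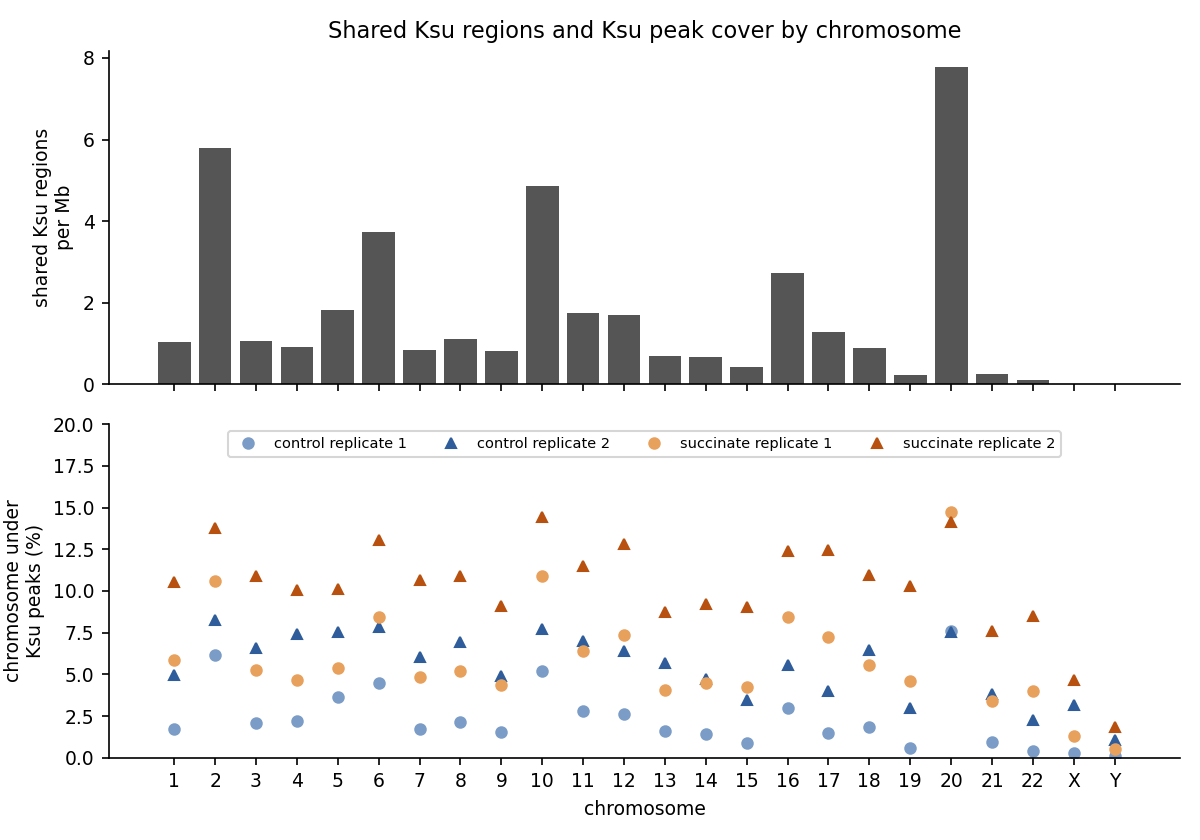
Upper panel, shared Ksu regions per Mb (vertical axis) on each chromosome (horizontal axis). Lower panel, percentage of each chromosome under Ksu peaks (vertical axis), 1 point per library, circles for replicate 1 and triangles for replicate 2. Chromosomes 20, 2, 10 and 6 have the tallest bars, from 7.79 down to 3.73 per Mb, and also high cover in each library.

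Within chromosomes the regions gathered in a few stretches. Of 3101 windows of 1 Mb, 1736 held a shared region and 99 held 10 or more. The densest was chr20:42000001-43000000 with 31 regions, against a chromosome mean of 7.79. It holds a single protein-coding gene, PTPRT, a receptor-type tyrosine phosphatase. Ksu peaks covered 17.4% of that window in control replicate 1, 10.8% in control replicate 2, 27.5% in succinate replicate 1 and 13.8% in succinate replicate 2. The first 3 values lie above the cover of the whole chromosome, and that of succinate replicate 2 lies just below it. Next came chr10:20000001-21000000 with 26 regions (PLXDC2 and NEBL), and all 26 were free of H3K27me3 peaks. In 2 others of the 5 densest windows, chr20:52000001-53000000 (19 regions, ZFP64 and TSHZ2) and chr10:19000001-20000000 (18 regions, MALRD1 and PLXDC2), no region overlapped an H3K27me3 peak.

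Very long genes held many of the shared regions, and short genes few. The 315 protein-coding genes of 500 kb or more were overlapped by 814 regions, 1.5 times the number that the mean density of their chromosomes gives. Genes of 100 to 500 kb had 0.88 times that number, genes of 10 to 100 kb 0.48 times and genes under 10 kb 0.66 times. Genes of 500 kb or more held 14.3% of shared region bases, against 12.0, 10.7 and 9.59% of the bases of regions in 3, 2 and 1 libraries. A long gene offers more room: 57 of the 69 genes of 1 Mb or more had a shared region, against 1180 (5.89%) of all 20037. PTPRT had the most, with 33 regions, or 2.85 per 100 kb against 0.779 on its chromosome. MACROD2, an enzyme that removes ADP-ribose from proteins, had 22. Then came NCKAP5 and NEBL with 15 each, the potassium channel gene KCNMA1 with 14, and CNTNAP5, of the neurexin family, with 13. The cell adhesion gene CTNNA2, the receptor gene GRID1 and MALRD1 had 12 each. NEBL had the highest density of the genes named here, 2.92 per 100 kb. In PTPRT 28 of the 33 regions had no H3K27me3 peak in any library, and in NCKAP5, CNTNAP5, CTNNA2 and MALRD1 none of the regions had one. The number without H3K27me3 was 21 of 22 in MACROD2, 12 of 15 in NEBL, 6 of 12 in GRID1 and 5 of 14 in KCNMA1, where 82.5% of all shared regions had none.

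Protein-coding gene bodies as a whole held 38.5% of shared region bases, below the 40.9% of regions in 3 libraries, 42.7% in 2 and 44.9% in 1, and below the 40.9% of the chromosomes. The share was below that of regions in 1 library on 15 of the 18 chromosomes with 50 or more shared regions. Without control replicate 1 it was 41.9%, above the chromosomes. Promoter windows overlapped 120 shared regions (2.11%), against 1.37, 1.12 and 0.794% of regions in 3, 2 and 1 libraries, which are narrower. Per Mb of region there were 11.5 promoter windows in shared regions, 17.6 in regions of 1 library and 11.4 over the chromosomes.

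Some genes that handle succinate or histone methylation held shared regions. Of 21 genes of succinate metabolism and succinylation 2 (9.52%) held a shared region, against 5.89% of all protein-coding genes. They were SUCLG2, a subunit of the GTP-forming succinyl-CoA ligase, and SLC13A3, a sodium-coupled transporter that carries succinate, with 2 regions each. Of 16 jumonji demethylase genes 2 did (12.5%): KDM5B, which acts on H3 lysine 4, and KDM3A, which acts on H3 lysine 9, with 1 region each. At these counts the shares cannot be set apart from that of all genes. None of the 11 genes of Polycomb repressive complex 2 and its partners, the 12 liver genes or the 10 housekeeping genes held any. The liver genes are short, with a median length of 11.9 kb against 24.1 kb for all protein-coding genes. Of 6 neuronal genes, markers of a lineage other than that of the line, 2 held a shared region (33.3%, against 5.89% of all). RBFOX3 held 2 regions and SNAP25 1, and NEUROD1, GRIN1, SLC17A7 and SYP held none. RBFOX3 is 576 kb long, and 58.9% of protein-coding genes of 500 kb to 1 Mb held a shared region. SNAP25 lies on chromosome 20, where shared regions were most frequent. Such counts are too small to set the neuronal genes apart from all genes. Peak lists hold no expression, so the identity of the cells could not be read from them.

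H3K27me3 was measured in libraries that the choice of regions did not use. H3K27me3 peaks covered 15.9% of shared Ksu region bases in control replicate 1, 9.06% in control replicate 2, 11.9% in succinate replicate 1 and 9.28% in succinate replicate 2. The chromosomes as a whole had 6.45, 3.79, 5.61 and 4.52%, so cover was higher in the shared regions in each of the 4 libraries. It was higher with more Ksu libraries: over regions in 1 Ksu library it was 8.77, 5.12, 7.51 and 6.01%, and over regions in 3 it was 14.3, 8.30, 11.4 and 9.03%. At equal width this order was not seen. Among regions of at least 2000 and under 3000 bp, the 2196 shared ones had 16.3, 9.25, 12.4 and 9.76% and the 6120 in 3 libraries 18.1, 10.7, 14.5 and 11.3%. Shared regions were lower than regions in 3 libraries in each of the 5 width classes and each of the 4 H3K27me3 libraries. Within the 18 chromosomes with 50 or more shared regions, cover was above that of regions in 1 library on 17, 15, 14 and 13 chromosomes in the 4 libraries, and above that of regions in 3 libraries on 10, 7, 9 and 5. Chromosome 20 had the highest density of shared Ksu regions and had H3K27me3 over 29.4, 19.0, 22.8 and 19.5% of their bases.

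**Figure D4:**
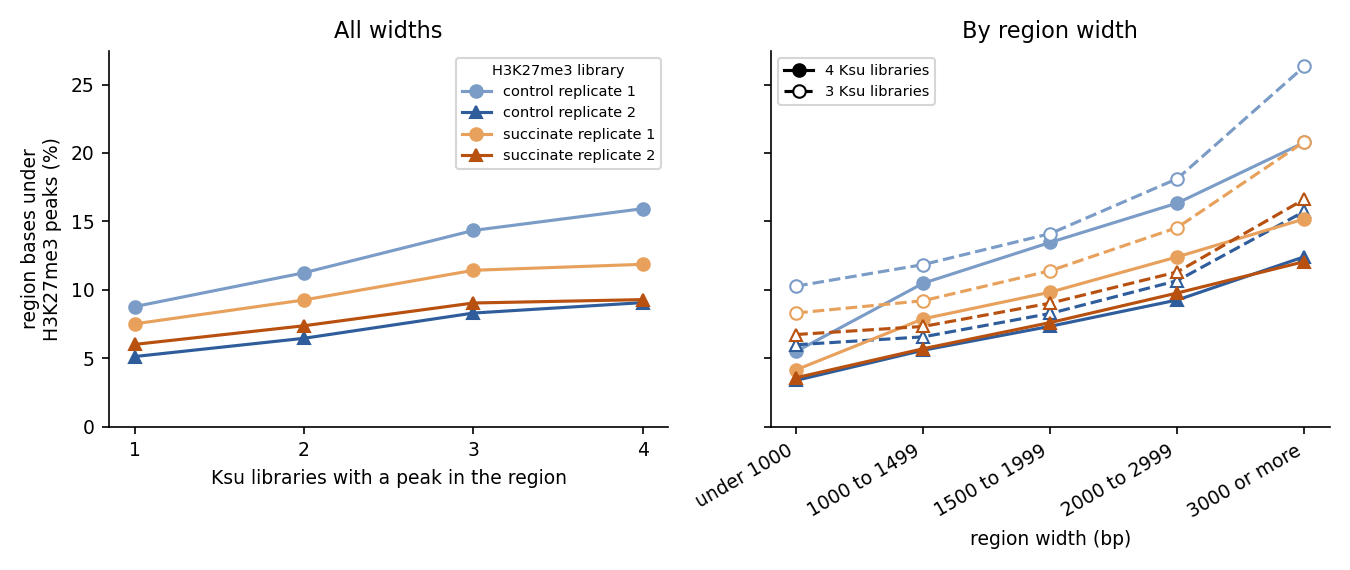
Percentage of Ksu region bases under H3K27me3 peaks (vertical axis), 1 line per H3K27me3 library. Left, by the number of Ksu libraries with a peak in the region; right, by region width for regions in 4 libraries (filled, solid) and 3 libraries (open, dashed). In the left panel cover is higher with each further Ksu library, and in the right panel the regions in 4 libraries lie below those in 3 in each width class.

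Most shared regions had no H3K27me3 at all. No H3K27me3 peak overlapped 4699 of them (82.5%, against 89.2% of all merged Ksu regions), and 393 were overlapped in all 4 H3K27me3 libraries (6.90%, against 4.26%). Over regions in 3 Ksu libraries these shares were 84.4 and 6.33%, close to those of the shared regions. H3K27me3 in both succinate libraries and no control library was found in 9 shared regions (0.158%, against 0.251% of all merged regions). The opposite pattern was found in 21 (0.369%, against 0.132%). Over regions in 3 Ksu libraries the shares of these patterns were 0.205 and 0.214% in that order.

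The first comparison of treatments asked whether succinate changed H3K27me3 over the shared Ksu regions. Mean cover was 12.5% ± 4.85 (SD, n = 2) in control and 10.6% ± 1.82 (SD, n = 2) in succinate. The log2 difference was -0.20, less than the pooled SD of 0.44, and the libraries overlapped (exact two-sided permutation p = 1). Without control H3K27me3 replicate 1 it was 0.21. With 2 libraries a group there are 6 arrangements and the smallest p is 0.333, so no difference between treatments could pass 0.05. Set against each library's cover of the chromosomes, shared regions were enriched 2.47-fold and 2.39-fold in the control libraries and 2.11-fold and 2.05-fold in the succinate libraries. Both succinate values lay below both control values, with a log2 difference of -0.22 and a pooled SD of 0.031 (exact two-sided permutation p = 0.333). Regions in 3 Ksu libraries, set against the chromosomes in the same way, were also lower in both succinate libraries than in both controls. The order is therefore not particular to the shared regions. Against regions in 1 Ksu library the ratios of the shared regions were 1.82, 1.77, 1.58 and 1.54. They differ by -0.20 on the log2 scale (pooled SD 0.025, exact permutation test p = 0.333). These ratios were computed after the cover had been seen. The direction of the ratio to the chromosomes was the same under all 17 alternatives run, and in 15 of them the treatments did not overlap. The replicate block among them equals the main value by construction. Most of the others changed only the Ksu regions and used the same H3K27me3 libraries, so they add no independent replicates.

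The second comparison asked whether the Ksu signal itself differed over these regions between treatments. Shared regions held 8.91% of the peak bases of control replicate 1, 2.28% of control replicate 2, 2.71% of succinate replicate 1 and 1.53% of succinate replicate 2. The order of these values is the inverse of the order of the 4 peak numbers, and the treatments overlapped. The log2 difference was -1.15, and -0.17 without control replicate 1. The rule chose the regions from these same peaks, so the values are a description with no test. Signal per covered base, relative to that over all peaks of the library, was 0.962 in control replicate 1, 1.06 in control replicate 2, 0.980 in succinate replicate 1 and 1.10 in succinate replicate 2. Control averaged 1.01 ± 0.068 and succinate 1.04 ± 0.082 (SD, n = 2 each). The log2 difference of 0.039 did not exceed the replicates' pooled SD, 0.11, and replicate 2 was the higher one in both treatments. It was -0.044 without succinate replicate 2. This too is a description.

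Region by region, the direction depended on the scale. As a share of each library's whole signal, 0 of the 5696 shared regions were higher in both succinate libraries than in both controls, against 26.4% of regions in 2 or more libraries. On that scale 2075 (36.4%) were higher in both controls, against 6.25%. Regions found only in the 2 libraries of one treatment count in those backgrounds by construction. Over regions in 3 or more libraries the background was 16.4% and 17.5%. The rule chose the shared regions from these same peaks, and control replicate 1 had the shortest list. Shared regions held 8.57% of its signal, against 2.42% in control replicate 2, 2.66% in succinate replicate 1 and 1.68% in succinate replicate 2. The counts on this scale follow in part from that choice and are a description with no test. Without control replicate 1, of the 31951 regions shared by the other 3 libraries 9434 were higher in succinate and 10621 were lower. Without control replicate 2 the numbers were 1 and 10428 of 10574. They were 21 and 8943 of 12941 without succinate replicate 1, and 92 and 3041 of 8062 without succinate replicate 2. With a library left out, 1 group has a single library, so its values separate from the others more readily. The regions differ too and no background was computed, so these counts cannot be read beside those of the 5696 regions. As a share of the signal in shared regions, a scale added after the data were seen, 808 (14.2%) were higher in both succinate libraries, against 28.2% in the background of 2 or more libraries and 25.3% in that of 3 or more. In the other direction there were 1057 (18.6%), against 4.99 and 11.3%. The median log2 ratio of succinate to control on this scale was -0.053, and 90% of regions lay between -1.33 and 1.27. With each library left out in turn the counts were 2274 to 11953 and 2721 to 10441. Both were highest without control replicate 1, where the number of shared regions was also highest.

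The regions that differed most between treatments were chosen for that difference, and their values carry no test. The highest ratio lay in CAMTA1, a calmodulin-binding transcription activator, at chr1:6952752-6955855. It held 0.0141 and 0.00277% of the signal in shared regions in the controls and 0.0469 and 0.0453% in the succinate libraries. Of its 3104 bp, the control peaks covered 578 and 158 bp and the succinate peaks 2410 and 2432 bp. H3K27me3 covered the whole region in all 4 libraries. Second was PMEPA1, which codes for an inhibitor of TGF-beta signalling, at chr20:57656246-57657878, with 0.0121 and 0.00164% in control and 0.0342 and 0.0302% in succinate. It too lay wholly under H3K27me3 in all 4 libraries. The other three of the 5 highest had no H3K27me3 peak. They were chr20:40319181-40321084, chr10:128921173-128924504 and a region in TAF4, a subunit of the general transcription factor TFIID, at chr20:62000065-62002848. The lowest ratio was that of chr3:26836421-26838434, outside protein-coding genes, with 0.0220 and 0.0400% in control and 0.00894 and 0.00215% in succinate. Also among the 5 lowest was a region in CNTN4, an axon-associated adhesion molecule, at chr3:2480926-2483637, with 0.0365 and 0.0322% in control and 0.0150 and 0.00186% in succinate. In 4 of the 5 lowest regions no library had an H3K27me3 peak, and in the fifth, chr12:68262071-68266279, succinate replicate 1 alone did. Of the 5 longest regions, the one in TOX2, a high mobility group box protein, at chr20:43931888-43939428 lay wholly under H3K27me3 and had a log2 ratio of 1.30. The other four had no H3K27me3 peak in at least 1 library of each treatment. Their log2 ratios were 0.81 in RPH3A, an effector of RAB3 in vesicle release, and 0.29 at chr10:42232398-42238743, with treatments that overlapped in both. They were -0.63 in NEBL and -0.98 at chr10:90606443-90614151. H3K27me3 lay on the regions in RPH3A and NEBL in replicate 1 of each treatment.

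Shared regions under H3K27me3 carried a larger part of the Ksu signal in both succinate libraries than in both controls. The 393 regions with H3K27me3 in all 4 libraries held 6.74% of the shared-region signal in control replicate 1, 5.93% in control replicate 2, 8.28% in succinate replicate 1 and 8.28% in succinate replicate 2. The treatments did not overlap. On the log2 scale succinate was higher by 0.39, and the replicates' pooled SD was 0.092 (exact two-sided permutation test, p = 0.333, which is the lower limit here). The 4699 regions without H3K27me3 held 82.4, 83.9, 79.3 and 79.9%, lower in both succinate libraries. This split was one of several looked at after the data were seen. The order held within each of the 4 dense chromosomes. On chromosome 20, where 79 of 501 regions were in the group, the shares were 15.3, 14.2, 17.1 and 17.2%, and on chromosome 6, with 27 of 637, they were 4.06, 3.42, 5.65 and 5.48%. On the chromosomes other than 2, 6, 10 and 20 they were 5.75, 5.06, 7.24 and 7.32%. In gene bodies the shares were 8.43, 7.19, 10.6 and 10.3% and outside them 5.71, 5.21, 6.85 and 7.04%. Over all merged Ksu regions, not the shared ones alone, the same measure was 4.41, 3.15, 6.51 and 4.83%, so the order is not particular to the shared regions. The difference was 0.22 without control replicate 2, 0.093 with equal numbers of peaks per library and 0.047 where presence meant 50% cover. In the last 2 settings the treatments overlapped.

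**Figure D5:**
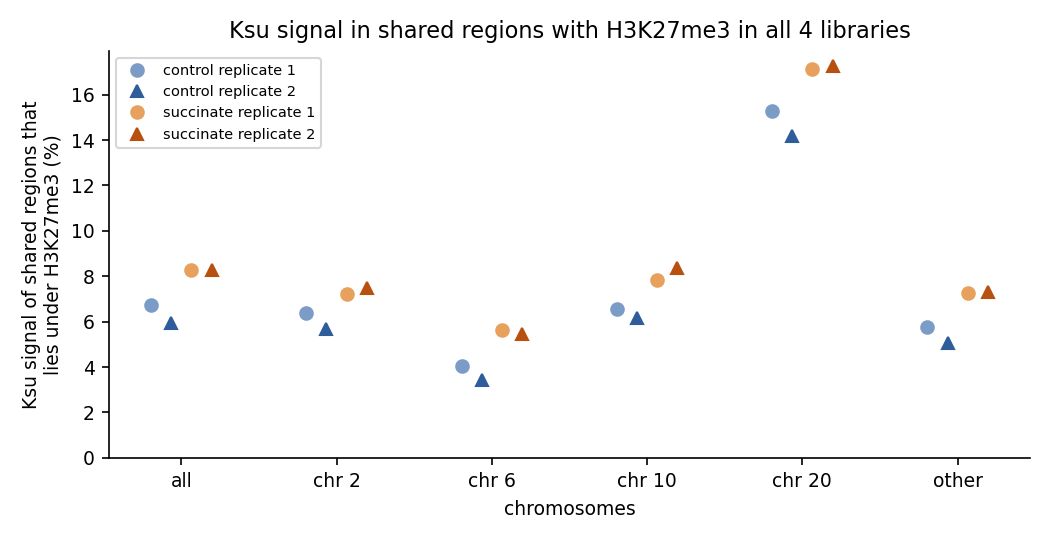
Percentage of the Ksu signal in shared regions that lies in regions with H3K27me3 in all 4 libraries (vertical axis), over all chromosomes and by chromosome (horizontal axis); 1 point per Ksu library, circles for replicate 1 and triangles for replicate 2. Both succinate points lie above both control points in each column, from 5.93 to 6.74% in control and 8.28% in succinate over all chromosomes.

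By single regions the same groups differed. Of the 393 regions, 99 (25.2%) were higher in both succinate libraries and 36 (9.16%) in both controls, with a median log2 ratio of 0.27. Of the 4699 without H3K27me3, 600 (12.8%) and 937 (19.9%) were, with a median of -0.10, and the 604 regions with H3K27me3 in 1 to 3 libraries had a median of 0.14. Over all shared regions these shares were 14.2 and 18.6%. Over regions in 3 or more Ksu libraries, whatever their H3K27me3, they were 25.3 and 11.3%, near those of the 393 regions. The 393 regions also lay more in gene bodies (47.9% of bases against 37.9% without H3K27me3) and more often on promoter windows (24 regions, 6.11%, against 66, 1.40%). They were wider, with a median of 2254 bp against 1990 bp. Chromosomes differed as well. On chromosome 17 the median log2 ratio was 0.23 and on chromosome 20 it was 0.20, while on chromosome 4 it was -0.39 and on chromosome 5 -0.27. Chromosome 4 held 2.90 and 3.06% of the shared-region signal in control and 2.43 and 2.41% in succinate, and chromosome 20 held 9.57, 8.35, 11.7 and 10.1%. The share of chromosome 20 was higher in both succinate libraries and that of chromosome 4 lower. The part of width, gene content and chromosome in the H3K27me3 split was not tested beyond these values.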

How the data were processed

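The authors deposited 1 peak list per library, 8 in all. Each list gives, per peak, the total signal and the highest signal, both of which the authors scaled per library in a way not given in the sources used here. Peaks came from SEACR, in stringent mode per the file names, on hg38, per the submitters' processing notes. The aligner, the control track and the number of reads are not given in the sources used here, so depth is unknown and no counting interval is printed. In each Ksu library a single step divided 100% of the peak heights into whole numbers, within 0.05.

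Peaks were merged and permutation tests were run with python 3.11.15, numpy 2.4.6 and pandas 2.3.3. The 95% intervals of shares came from scipy 1.17.1. The scripts were checked on simulated data. Gene extents, promoter windows and microRNA hairpins came from RefSeq tables of GRCh38.p14. Chromosomes were taken to end where the last peak or gene ends (3087 Mb together). Treatments were compared on log2 values by an exact two-sided permutation test over 4 libraries. No p-value is printed for the share of peak bases or the relative density, which use the peaks that chose the regions. The p-values measure only the spread between these libraries. The labels do not say that a replicate number links libraries of the 2 treatments, so the main comparisons have no block.

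The regions and gene lists were chosen with earlier results of these data known. Regions named were the 10 strongest in their weakest library, the 5 longest, the 5 highest and 5 lowest ratios among those whose treatments did not overlap, and the 5 densest windows of 1 Mb. Genes named were those in them, the 10 with most regions (11 with a tie) and list members with a region; some items that this rule names are not reported here. Sequences shown are the promoter windows with most bases covered in all 4 libraries. Alternatives are given at the end.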

Additional observations from a re-analysis of the deposited data

Results flagged for a closer look

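On sequences outside the 24 chromosomes, which no comparison used, 1361 merged Ksu regions were found, and 11 of them (0.808%) had a peak of all 4 libraries. They lay on 6 sequences. These regions were singled out because they belong to data outside the main measurement. On the chromosomes the share was 0.545%, and the difference was not tested.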

How the results depend on the processing

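The number of reads behind each list is unknown, and the lists differ in their lowest listed signal, which limits every comparison of peak numbers and cover. Of 184 alternative values over 15 results, 99 counted as kept, 82 moved and 3 reversed. A count was kept within a ratio of 1.5 and a share within the 95% interval of the main share. A treatment difference was kept when its sign was the same, whatever its size. The values with the replicate number as a block equal the main ones by construction and are among those kept. Causes were not tested. The number of shared regions was 86 with presence at 50% cover, 1938 with a common base, 375 with equal numbers of peaks (76702 per library), 1173 with the strongest 50% of peaks, 1785 with peaks of at least 500 bp, 20103 with peaks merged within 1 kb, and 8062 to 31951 with each replicate left out. Regions with a common base numbered 85, 140, 390 and 616 at 50% cover, equal numbers, the strongest 50% and 500 bp, and 4680 to 20868 with a replicate left out. The density on chromosome 20 was 0.109, 2.74, 0.668, 2.15, 2.70 and 22.9 per Mb under those 6 settings in the first order, and 10.7 to 27.2 with a replicate left out. The gene body share was 37.2% at 50% cover, 35.5% with a common base, 36.1% with the strongest 50%, 39.9% with 500 bp, and 37.1 to 41.9% with a replicate left out. The promoter share was 3.79% with merging within 1 kb and 1.37 to 1.81% with a replicate left out. Regions higher in both succinate libraries numbered 63 with equal numbers, 14 with 500 bp, 193 within 1 kb and 1 to 9434 with a replicate left out. Those higher in both controls numbered 33, 765, 67, 404, 880 and 7069 in the first order, and 3041 to 10621. On the scale of signal in shared regions, without control replicate 1, control replicate 2, succinate replicate 1 and succinate replicate 2 in turn, 11953, 2274, 4135 and 2511 regions were higher in succinate and 10441, 3943, 5100 and 2721 in control. Counts of this kind are out of the number of shared regions under the same setting, and no background was computed for them. The share of regions on chromosomes 2, 6, 10 and 20 ranged from 39.7 to 68%. The log2 difference in relative density was -0.044 to 0.12 with a replicate left out, reversed at -0.044 without succinate replicate 2. That in H3K27me3 cover was -0.60 to 0.21, reversed at 0.21 without control H3K27me3 replicate 1, and 0.033 with equal numbers of H3K27me3 peaks (5531 per library). The share of peak bases kept its direction in all 12 alternatives (-2.22 to -0.054). With the replicate number as a block the differences were equal to those without: 0.039 in density, -1.15 in peak bases, -0.20 in H3K27me3 cover, -0.22 in enrichment over the chromosomes and 0.39 in the H3K27me3 split. Joining touching peaks gave 5705 regions. Settings added after seeing the data were touching peaks, the scale of signal in shared regions, the enrichment ratios, the H3K27me3 split and the 4 chromosomes.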

Other observations

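Shared Ksu regions overlapped 7 of the 1562 microRNA hairpins in the RefSeq table (0.448%, near the 0.397% of the chromosomes that lie in shared regions), and no hairpin had a base covered in all 4 libraries. They were MIR511, MIR216A, MIR2355, MIR6812, MIR3617, MIR296 and MIR298. MIR296 and MIR298 lay in 1 region, chr20:58815301-58819134.

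Of the 5694 protein-coding genes under 10 kb, 30 were overlapped. They included CXCL14, a chemokine, STING1, the adaptor of cytosolic DNA sensing, G6PC2, a glucose-6-phosphatase catalytic subunit, and KCNS1, a potassium channel subunit, all chosen after their names were seen.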
